A study of Mus musculus with 2 samples.

Results

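The genes described here are 6 matrix metalloproteinases (Mmp2, Mmp3, Mmp9, Mmp13, Mmp14 and Mmp19) and 3 of their inhibitors (Timp1, Timp2 and Timp3), chosen by symbol from the 32285 genes counted. All 9 were found. They were followed in stromal vascular cells, the non-adipocyte cells of digested fat, of mouse epididymal white adipose tissue after 10 weeks of high-fat diet. There was 1 droplet 3' single-cell library from a Camk2d myeloid conditional knockout (the knockout library) and 1 from a wild-type mouse or mice (the wild-type library). Both groups had the same diet. The labels do not name the Cre driver, the deleted exons, the age, or how many animals a library pools, and all fields give adipose tissue except 1 description field, which names embryonic hindlimb. The tissue was digested with collagenase, an enzyme preparation that is not encoded by these genes. A single library of each genotype leaves no replicate to test a genotype difference with, and all intervals are 95% intervals that cover counting error only.

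Matrix metalloproteinases are zinc-dependent endopeptidases, most of them made as inactive proenzymes, that cut collagens and other matrix proteins around cells. Tissue inhibitors of metalloproteinases (TIMPs) bind the active site of the mature enzymes, and TIMP2 also takes part, with the membrane-bound MMP14, in activating the proenzyme of MMP2. In fat, matrix turnover accompanies the growth of adipocytes and blood vessels, and stromal progenitors and macrophages are known sources of these proteins. Transcript counts give neither the amount nor the activity of the enzymes.

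Mmp3 and Mmp13 lie in a cluster of 10 metalloproteinase genes on chromosome 9 (GRCm38, the assembly also called mm10), which also holds Mmp12, and the stretch from the start of Mmp13 to the end of Mmp3 is 183462 bases. Mmp13, which encodes a collagenase, is at chr9:7272514-7283331 on the plus strand, and Mmp3, which encodes stromelysin-1, is at chr9:7445822-7455975 on the plus strand. The 250 bases before each start are shown because these neighbours were detected in different cells, Mmp3 in progenitors and Mmp13 in macrophages, while both windows hold the AP-1 motif TGAGTCA or its reverse complement TGACTCA, given in capitals. They are 5' to 3' on the plus strand, from RefSeq on GRCm38.p6.
Mmp3, chr9:7445572-7445821: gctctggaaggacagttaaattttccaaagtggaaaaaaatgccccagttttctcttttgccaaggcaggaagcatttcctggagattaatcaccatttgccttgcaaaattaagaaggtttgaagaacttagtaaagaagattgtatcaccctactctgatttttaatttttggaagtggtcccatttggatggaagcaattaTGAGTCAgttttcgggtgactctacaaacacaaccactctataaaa
Mmp13, chr9:7272264-7272513: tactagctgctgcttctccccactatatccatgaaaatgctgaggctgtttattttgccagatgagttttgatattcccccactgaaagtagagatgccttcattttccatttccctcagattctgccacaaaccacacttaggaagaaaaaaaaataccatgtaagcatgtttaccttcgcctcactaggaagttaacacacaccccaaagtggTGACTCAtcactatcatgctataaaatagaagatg
The motif begins 46 bases before the start of Mmp3 and 35 bases before that of Mmp13. RefSeq windows were found for 6 of the 9 genes and 2 of these 6 hold the motif, against 1466 of 32851 windows of this length in the table (4.46%). A match describes these letters and shows no binding.

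The other genes lie apart. Mmp2 is at chr8:92827291-92853420, Mmp9 at chr2:164940780-164955850, Mmp14 at chr14:54431612-54445364 and Mmp19 at chr10:128790910-128800824, all on the plus strand. Timp1 (chrX:20870166-20874735, plus strand) lies within Syn1 and Timp3 (chr10:86300372-86349506, plus strand) within Syn3, both hosts on the opposite strand. Timp2 (chr11:118301069-118355740, minus strand) overlaps Cep295nl on its own strand, and Mmp19 overlaps the antisense gene Gm47093 and the end of Tmem198b. How the counting split reads between such overlaps was not tested.

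The knockout library held 10631 barcodes with a median of 7385 UMIs (unique molecular identifiers, which count transcript molecules), and the wild-type library 15555 with a median of 3094. The labels give 10000 to 13000 loaded cells, which is fewer than the barcodes of the wild-type library, so not all of these need be single cells. After filtering, 9635 and 15332 barcodes remained, called cells here. Cells were assigned to classes by marker genes: 82.2% of knockout and 55.0% of wild-type cells took a class, 10.5% and 27.4% carried markers of several lineages, and the rest took none. Class names stand for cells gated on markers, not for sorted cells. Of 128 comparisons of marker genes that the assignment did not use, 126 were over 1.5-fold above the other classes. The libraries therefore differ in depth and in the share of cells with mixed markers, and the part of either in the results was not tested. Levels are UMIs of a gene scaled to a fixed class total, in the unit CPM. As a check of the labels, Camk2d was at 26.6 CPM in knockout and 48.2 CPM in wild-type macrophages (log2 ratio -0.86, interval -1.03 to -0.69). It was at 86.1 and 57.1 CPM in monocytes (0.59, -0.15 to 1.39). In cDC1, type 1 dendritic cells, it was at 26.4 and 33.2 CPM (-0.33, -0.89 to 0.21). In cells gated on Cd209a, Clec10a, Ccl17 and Kmo it was at 2.73 and 27.3 CPM, from 2 and 24 UMIs (-3.32, -6.45 to -1.31). A lower level stood clear of counting error in macrophages and, from few UMIs, in the latter cells, but not in monocytes or cDC1. Since the deleted exons are not given, the 3' counts may lie outside them.

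Progenitor-gated cells (Pdgfra, Dcn, Lum, Dpt, Clec3b and Serpinf1), 4343 knockout and 3208 wild-type cells, were the main place of 6 of the 9 genes. They held 98.7% of the Mmp2 UMIs of all classed knockout cells and 94.9% of those of wild-type cells. The corresponding shares were 98.6% and 93.2% for Mmp3 and 97.4% and 91.3% for Mmp14. Of the inhibitors, progenitors held 91.9% and 92.8% of the Timp1 UMIs, 87.1% and 74.9% of those of Timp2 and 95.2% and 86.9% of those of Timp3. Mmp19 was divided between progenitors (49.6% and 36.9%) and macrophages (39.7% and 53.7%). Mmp13 lay mostly in macrophages (85.1% and 81.5%), and Mmp9 in macrophages, neutrophils and T cells.

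**Figure D1:**
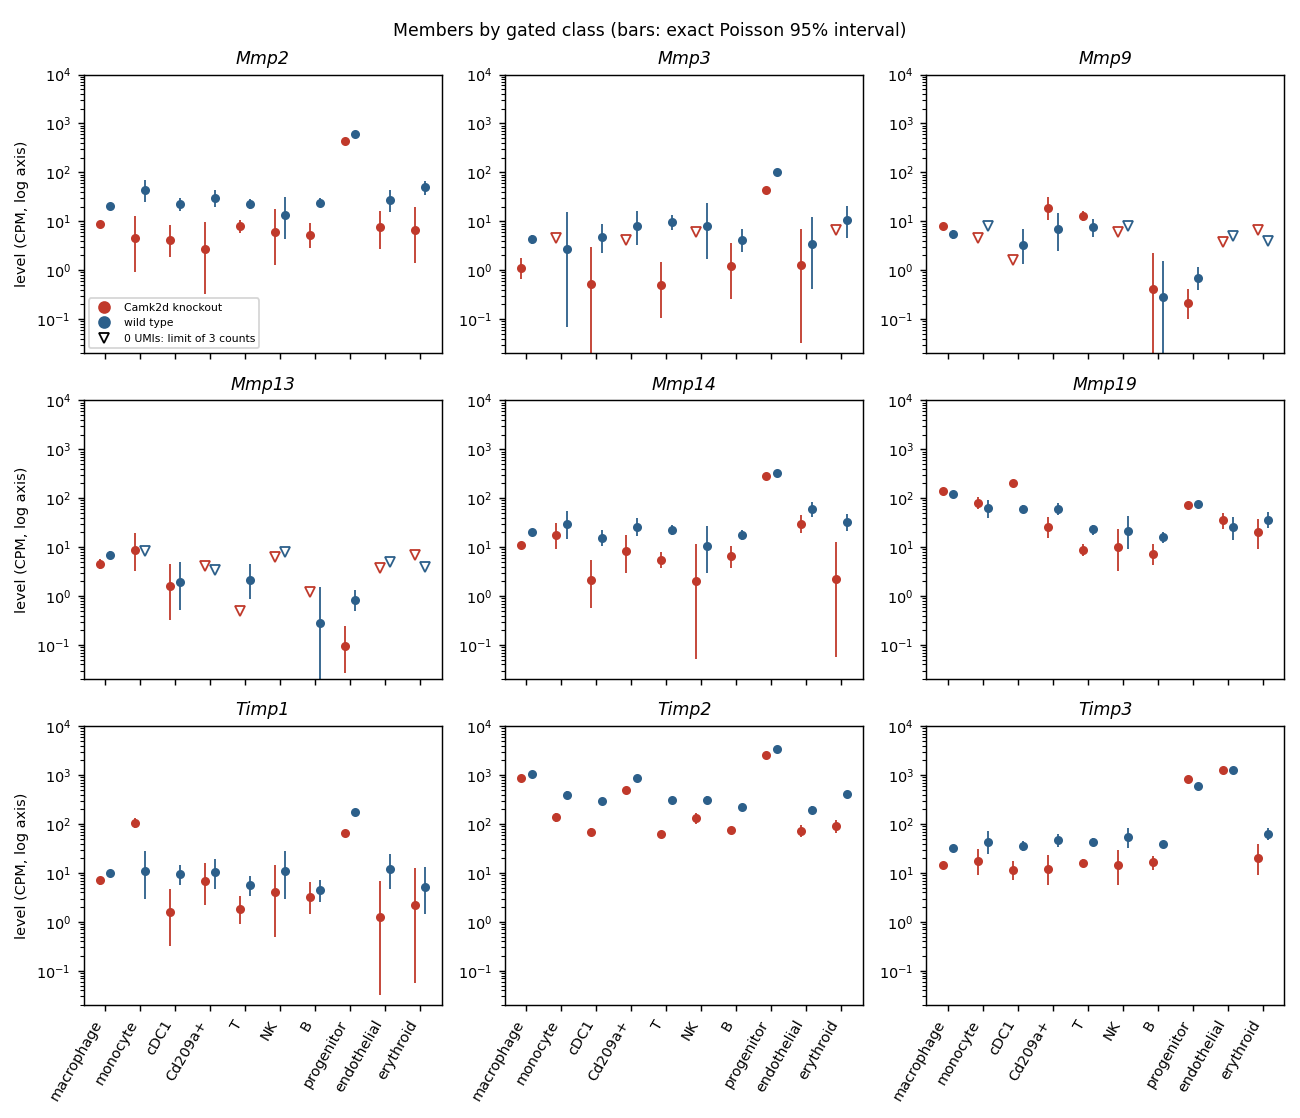
Level of each of the 9 genes (CPM, log axis) in 10 cell classes, knockout and wild-type libraries, with exact Poisson 95% intervals and open triangles at the limit that a count of 0 allows. Mmp2, Mmp3, Mmp14 and Timp2 are highest in progenitors of both libraries among the classes plotted, and Timp3 is highest in endothelial cells of both.

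Among the gelatinases, Mmp2 encodes the enzyme of mesenchymal cells that degrades denatured collagen and basement membrane collagen. Knockout progenitors held 447 CPM (441 to 454) and wild-type progenitors 623 CPM (612 to 633). The log2 ratio, here always knockout over wild type, was -0.48 (-0.51 to -0.45), and the intervals of the levels did not overlap. In the other 9 classes it lay between 2.73 and 8.79 CPM for knockout cells and between 13.4 and 49.6 CPM for wild-type cells, and the intervals of neighbouring classes in that order overlapped. When each cell was thinned to 2000 UMIs, 55.2% of knockout and 64.3% of wild-type progenitors had an Mmp2 UMI (83.9% and 84.0% before thinning). B cells, which should lack it, had one in 1.37% and 4.73% (median depth 5527 and 4827 UMIs, against 9981 and 6854.5 in progenitors).

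Mmp9, the gelatinase of neutrophils and other leukocytes, was rare, with 412 UMIs in all kept knockout cells and 231 in all kept wild-type cells. The highest levels were in neutrophil-gated cells (Retnlg, Csf3r, Cxcr2, S100a8 and S100a9). There it reached 938 CPM among knockout cells, from 109 UMIs in 18 of 22 cells, and 964 CPM among wild-type cells, from 17 UMIs in 5 of 6 cells. T cells held 13.0 CPM (10.2 to 16.2; 77 UMIs in 52 cells) and 7.47 CPM (4.79 to 11.1; 24 UMIs in 21 cells). Their log2 ratio was 0.80 (0.12 to 1.52), within 2-fold. Cells gated on Cd209a, Clec10a, Ccl17 and Kmo, markers of type 2 dendritic cells, held 19.1 and 6.83 CPM, from 14 UMIs in 6 cells and 6 UMIs in 4 cells. The T-cell levels were above the 0.18 and 0.43 CPM that RNA from progenitors and macrophages would bring, as computed below. Among T cells with Cd4 and without Cd8 transcripts, Mmp9 was at 29.8 CPM in knockout (22.2 to 39.2; 51 UMIs, 326 cells) and 20.9 CPM in wild-type cells (5.69 to 53.5; 4 UMIs, 42 cells). In those with Cd8 and without Cd4 it was at 0.90 CPM (0.11 to 3.25) and 3.37 CPM (1.09 to 7.85). Cells with neither transcript, 353 and 396 in number, held 12.0 CPM (7.41 to 18.3; 21 UMIs) and 9.85 CPM (5.51 to 16.2; 15 UMIs). Within the knockout library the Cd4 and Cd8 intervals were apart, and in the wild type they overlapped. The Cd4 cells were 31.2% of knockout and 5.38% of wild-type T cells, and the part of this in the difference of the whole T class was not tested.

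Mmp3, encoding stromelysin-1, which cleaves proteoglycans and other matrix proteins and can activate other proenzymes, was lower in the knockout library. Knockout progenitors held 43.0 CPM (41.0 to 45.0) and wild-type progenitors 104 CPM (99.6 to 108), levels whose intervals lie far apart. The log2 ratio was -1.27 (-1.36 to -1.18). Of all 7975 genes past the same floor on level in progenitors (a mean of 10 CPM and 30 UMIs in the higher library), 2.23% had a knockout level at least 2-fold lower and 0.94% one at least 2-fold higher, and the median log2 ratio was -0.09. Of the 9 genes described, 7 passed that floor, 2 (Mmp3 and Timp1) were lower by that much and 0 were higher. Mmp9 and Mmp13 did not pass it. Progenitors with an Mmp3 UMI made up 3.87% of thinned knockout and 9.63% of thinned wild-type cells (7.0% and 15.8% unthinned), against 0.27% and 1.23% of B cells.

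Mmp3 transcripts were unevenly spread over progenitors. The richest 5% of cells held 95.2% of the knockout Mmp3 UMIs and 77.8% of the wild-type ones. Over all genes at 20 to 200 CPM the median of this share was 31.6% and 35.4%, and 5 of 4828 knockout genes and 3 of 5100 wild-type genes, Mmp3 included, had a share as high as that of Mmp3. Cells with at least 5 Mmp3 UMIs, a limit set after the values were seen, were 110 knockout progenitors (2.53%) holding 80.2% of the UMIs and 136 wild-type progenitors (4.24%) holding 73.4%. A further 25 and 24 cells had 4. They occurred in each subgate: 3.34% and 6.54% of committed progenitors, 2.79% and 5.42% of inflamed ones and 1.65% and 2.24% of interstitial ones. In the Mmp3-rich cells Mmp2 was at 588 CPM against 443 CPM in other progenitors of the knockout, and at 913 against 606 CPM in the wild type. Timp1 was at 88.3 against 64.7 CPM and at 354 against 163 CPM, whereas Timp2 was at 2399 against 2647 CPM and at 2268 against 3428 CPM. Mmp3 thus came with more Mmp2 and Timp1 and less Timp2 in the same cells of both libraries, as a description of cells chosen by their Mmp3 count. Committed cells also differ from interstitial ones in these directions, and the part of the subgates in this was not tested. The median depth of the Mmp3-rich cells was 11930.5 and 8020.5 UMIs, against 9981 and 6854.5 in all progenitors. Fbln7, a matrix glycoprotein gene, was among their leading genes at 151 against 45.9 CPM in the knockout and 162 against 65.2 CPM in the wild type.

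**Figure D2:**
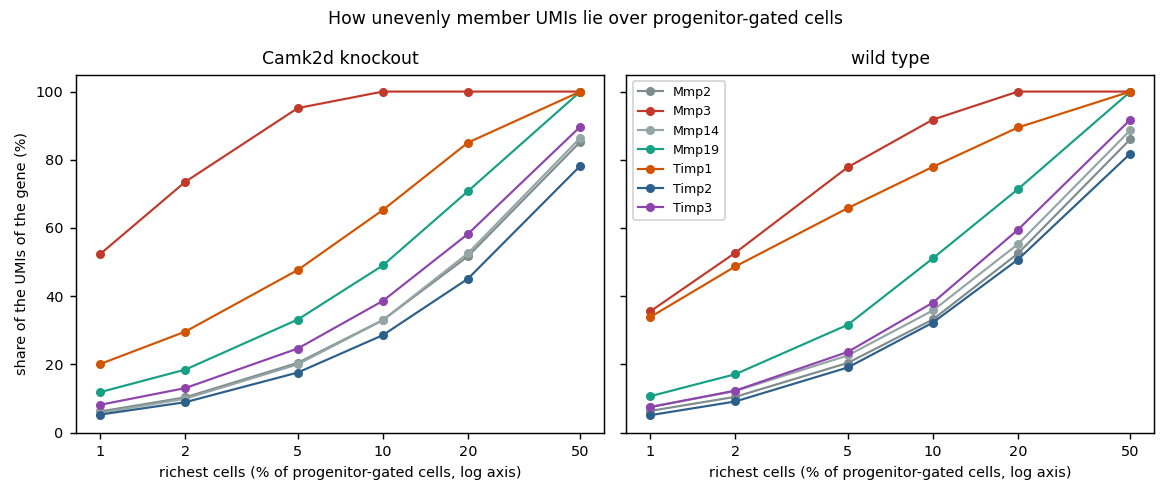
Share of a gene's UMIs (percent, vertical axis) held by the richest cells (percent of progenitors, horizontal axis) in each library, 1 line per gene. The Mmp3 line rises fastest, to 95.2% in the richest 5% of knockout and 77.8% in the richest 5% of wild-type cells, followed by Timp1 at 47.7% and 65.8%.

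Mmp14 encodes membrane-type 1 metalloproteinase, a collagenase anchored at the cell surface that activates pro-MMP2. It was at 282 CPM in knockout and 334 CPM in wild-type progenitors. The log2 ratio of -0.24 (-0.29 to -0.20) lay within 2-fold. Among the 10 classes with 50 or more cells in each library, blood endothelial cells came next in both, at 30.2 CPM (19.3 to 44.9) and 59.3 CPM (41.3 to 82.5), with a log2 ratio of -0.98 (-1.79 to -0.19). The few mural cells held 183 CPM (79.1 to 361; 8 UMIs) and 79.5 CPM (9.63 to 287; 2 UMIs), and mesothelial cells 58.4 and 47.0 CPM. The stromal share, as computed below, gives 64.3 and 144 CPM for mural cells and 212 and 213 CPM for mesothelial cells. Of these levels only that of knockout mural cells was above the computed one. For Mmp2 the same step gave 336 and 396 CPM for mesothelial cells, where 18.3 and 20.9 CPM were measured. It gave 102 CPM for knockout mural cells, which had 0 Mmp2 UMIs, and 268 CPM for wild-type ones (119 measured, 24.6 to 349). The computed levels are therefore not read as progenitor RNA in these classes. These endothelial levels were above the 7.35 and 19.8 CPM expected from progenitor and macrophage RNA together.

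Mmp19 encodes a metalloproteinase found in leukocytes and stromal cells that cuts basement membrane proteins. It was near the same level in progenitors of both libraries, 71.0 CPM (68.5 to 73.6) and 75.8 CPM (72.2 to 79.5), with a log2 ratio of -0.09 (-0.18 to -0.01). Macrophages held more, 143 CPM (137 to 149) in knockout and 125 CPM (120 to 130) in wild-type cells, with a log2 ratio of 0.20 (0.12 to 0.28). Their distribution was uneven too, since the richest 5% of macrophages held 53.5% and 59.8% of the Mmp19 UMIs.

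Progenitors were divided by further markers into interstitial (Dpp4, Pi16, Sema3c, Anxa3, Efhd1), inflamed (Ptx3, Cxcl1, Il6, Cxcl5, Has1) and committed cells (Col15a1, Cxcl14, Pparg, Agt, Gdf10). Inflamed cells numbered 2511 among knockout and 627 among wild-type progenitors, interstitial 485 and 1073, and committed 778 and 978. Mmp2, Mmp3, Mmp14 and Mmp19 were lower in interstitial than in committed cells of both libraries, with log2 differences of -0.89 and -1.04 for Mmp2 and of -0.93 and -1.40 for Mmp3 (knockout, then wild type). They were -0.49 and -0.80 for Mmp14 and -0.98 and -0.83 for Mmp19. Timp2 ran the other way, at 4171 against 2083 CPM in knockout cells (1.00) and 4866 against 2321 CPM in wild-type cells (1.07), and so did Timp3 (0.40 and 0.84). Summed over the 3 inhibitors and the 6 enzymes, interstitial cells had 8.48 and 7.69 inhibitor UMIs per enzyme UMI, inflamed cells 4.14 and 2.94, and committed cells 2.78 and 1.98. The order of the subgates was the same in both libraries.

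The genotype difference of Mmp3 had 1 direction in each subgate. Interstitial cells held 29.2 CPM in knockout and 50.5 CPM in wild-type cells (log2 -0.79), inflamed cells 41.7 and 134 CPM (-1.69), committed cells 55.7 and 133 CPM (-1.25) and the remaining cells 48.4 and 147 CPM (-1.60). The knockout interstitial level came from 148 UMIs in 18 cells, of which 1 held 46, and was 20.1 CPM without it. Of the remaining wild-type cells 1 held 61 of 305 UMIs, and their level was 118 CPM without it. Mmp3 was lower by 2-fold or more in 3 of the 4 and Timp1 in all 4, and 0 members were higher by that much. The shares of all genes lower by 2-fold or more were 2.04%, 1.81%, 1.88% and 4.75%, and those higher were 0.693%, 0.666%, 0.469% and 1.48%. The make-up of the progenitor class also differed between the libraries, and the direction was the same within each subgate.

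**Figure D3:**
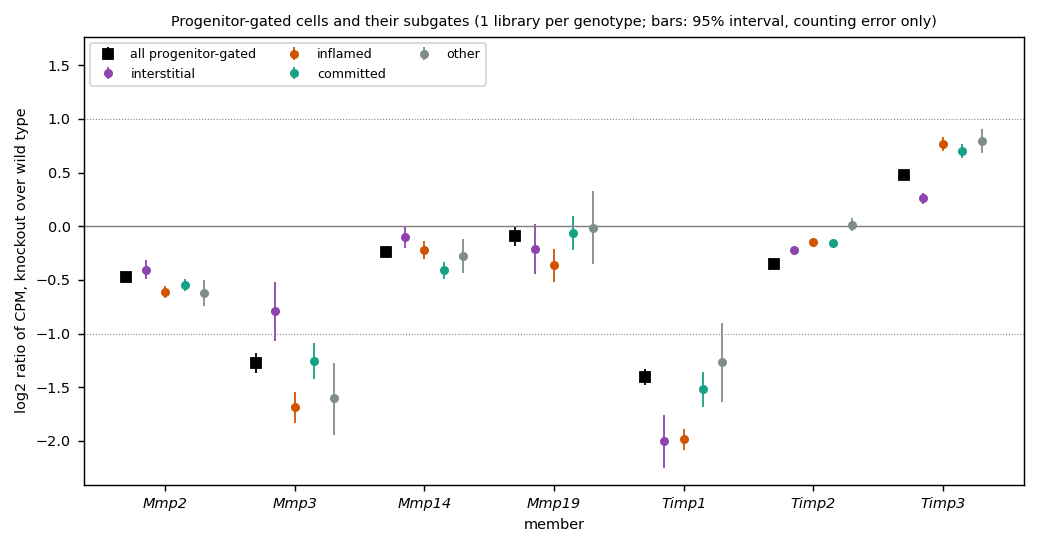
Log2 ratio of CPM, knockout over wild type (vertical axis), of the 7 genes past the floor in all progenitors and in their subgates, with exact conditional 95% intervals. Mmp3 and Timp1 lie below 0 and Timp3 above 0 in each subgate.

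Timp1, a secreted inhibitor induced in inflamed and fibrotic tissue, was also lower in the knockout library. Knockout progenitors held 65.4 CPM (63.0 to 68.0) and wild-type progenitors 173 CPM (168 to 179), again with intervals far apart. The log2 ratio was -1.40 (-1.48 to -1.33). Within subgates it was at 31.2 against 124 CPM in interstitial cells (-2.0), 76.0 against 301 CPM in inflamed cells (-1.99), 57.1 against 164 CPM in committed cells (-1.52) and 42.6 against 102 CPM in the rest (-1.26). Inflamed cells had the highest Timp1 level in both libraries, and they were the more frequent subgate in the knockout, and the ratio over the whole class was closer to 0 than that within the 3 named subgates. A UMI was found in 10.7% and 15.8% of thinned progenitors (29.3% and 32.3% unthinned), a smaller difference than that of the levels, against 0.82% and 1.40% of B cells.

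Timp2, the broadly made inhibitor that also serves MMP2 activation, had the highest level of the 9 in progenitors. It was at 2639 CPM (2623 to 2654) in knockout and 3364 CPM (3339 to 3388) in wild-type cells. The log2 ratio was -0.35 (-0.36 to -0.34), and within the subgates its ratios lay between -0.22 and 0.01. The ratio of the whole class lies outside that range, and interstitial cells, the subgate with the most Timp2, were 485 of the knockout and 1073 of the wild-type progenitors. Among the 10 classes, macrophages followed with 857 CPM (843 to 871) and 1032 CPM (1018 to 1047), and a log2 ratio of -0.27. Mesothelial cells, 24 and 27 in number, lay above macrophages at 2564 CPM (2378 to 2761) and 2984 CPM (2745 to 3239). The stromal share, as computed below, gives 1981 and 2140 CPM for mesothelial cells. It is not read as progenitor RNA there, since it also gives 336 and 396 CPM of Mmp2, where 18.3 and 20.9 CPM were measured. The Cd209a-gated cells came after macrophages, at 493 and 880 CPM, and they also lead with Mgl2 and Cd209f.

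Timp3, the inhibitor that binds to the matrix and also blocks ADAM proteases, was higher in knockout progenitors, at 844 CPM (835 to 852) against 608 CPM (597 to 618). The log2 ratio was 0.47 (0.44 to 0.50), within 2-fold, and the direction opposite to that of Timp1 and Timp2. It was also higher in each subgate, with log2 ratios of 0.26 in interstitial (994 against 830 CPM), 0.77 in inflamed (842 against 495 CPM), 0.70 in committed (752 against 463 CPM) and 0.79 in the remaining cells (818 against 472 CPM). Blood endothelial cells had more Timp3 than progenitors in both libraries, 1277 CPM (1200 to 1358) and 1249 CPM (1161 to 1343), with a log2 ratio of 0.03 (-0.11 to 0.17). Mural cells had 2566 CPM from 112 UMIs in 15 cells and 1232 CPM from 31 UMIs in 10 cells, of which 1 wild-type cell held 20, and without it the wild-type level was 526 CPM. Thinned shares with a Timp3 UMI were 64.9% and 56.6% of progenitors against 2.19% and 10.5% of B cells. Timp4, the fourth inhibitor, was a vascular transcript here, at 456 and 378 CPM in endothelial cells and 0.56 and 0.65 CPM in progenitors.

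Within macrophages (C1qa, C1qb, C1qc, Adgre1, Mrc1, Csf1r, Fcgr1, Ms4a7) the genes fell on different cells. Lipid-associated macrophages (Trem2, Gpnmb, Spp1, Fabp5, Lpl) numbered 811 among knockout and 2068 among wild-type macrophages, and resident ones (Lyve1, Folr2, Cd163, Timd4, Cbr2) 372 and 411. Mmp19 was higher in lipid-associated than in resident cells, at 173 against 69.9 CPM for knockout (log2 1.31) and 132 against 81.1 CPM for wild-type cells (0.71). Mmp9 was higher in resident cells, at 21.5 against 2.60 CPM for knockout and 15.7 against 3.42 CPM for wild-type cells. Timp2 was also higher in resident cells, at 1215 against 737 CPM and 1768 against 900 CPM. Mmp12, the macrophage elastase and neighbour of Mmp3 and Mmp13, was at 413 against 16.7 CPM and 717 against 78.4 CPM, higher in lipid-associated cells. Between genotypes, 5 of the 9 genes passed the floor in lipid-associated cells, where Mmp2 and Timp3 were lower by 2-fold or more (background 1.45% lower, 1.17% higher). In resident cells 6 passed, where Mmp2, Mmp14 and Timp3 were lower (background 1.87% lower, 0.78% higher). In resident cells progenitor RNA would bring 8.77 and 26.2 CPM of Mmp2 (10.0 and 21.8 measured), 5.53 and 14.1 CPM of Mmp14 (7.31 and 19.1) and 16.5 and 25.6 CPM of Timp3 (14.6 and 33.7). For lipid-associated cells these were 6.09 and 25.2 CPM of Mmp2 (7.97 and 19.9 measured) and 11.5 and 24.6 CPM of Timp3 (13.9 and 29.9).

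**Figure D4:**
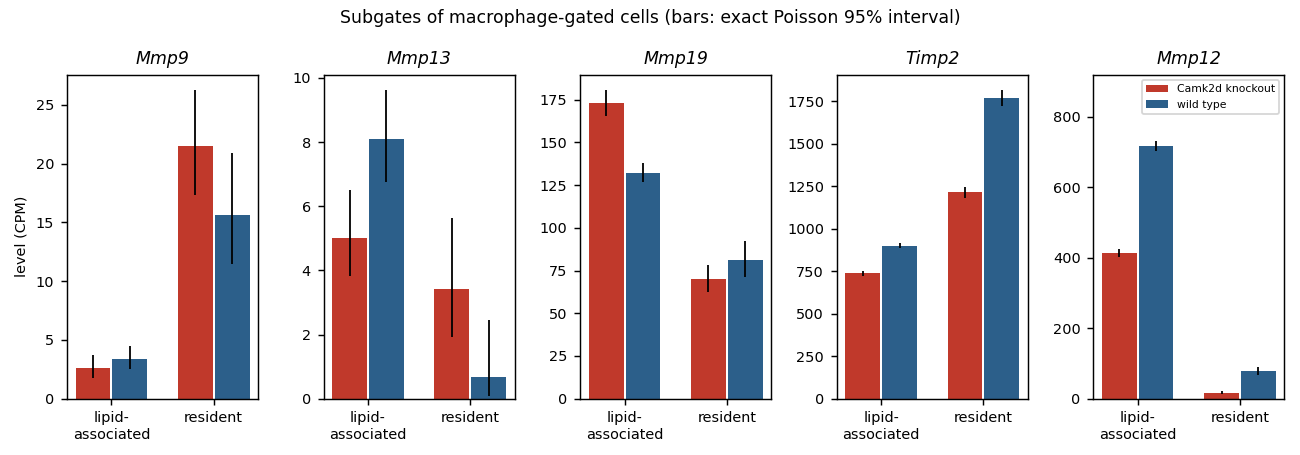
Levels (CPM) of Mmp9, Mmp13, Mmp19, Timp2 and Mmp12 in lipid-associated and resident macrophages of each library, with exact Poisson 95% intervals. Mmp9 and Timp2 are higher in resident cells and Mmp19 and Mmp12 in lipid-associated cells of both libraries, while Mmp13 is clearly apart in the wild type only.

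Among macrophages with an Mmp9 UMI, 46 of 71 knockout cells (64.8%) and 36 of 69 wild-type cells (52.2%) had a Lyve1 UMI, against 27.1% and 19.8% of the others. Lyve1 is one of the resident markers. Cd163, another of them, was found in 15 (21.1%) and 15 (21.7%) of the Mmp9 cells, against 19.3% and 8.65% of the others. Retnlg, a neutrophil gene, was found in 0 and 1 of the Mmp9 cells. Mmp13 was at 4.52 CPM in knockout and 6.89 CPM in wild-type macrophages, from 74 UMIs in 23 cells and 132 UMIs in 59 cells. In the wild type it was at 8.10 CPM in lipid-associated and 0.68 CPM in resident cells. In the knockout these were 5.03 and 3.43 CPM, where 12 of the 15 resident UMIs came from 1 cell. The subgate difference of Mmp13 in the knockout thus rests on few cells.

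Mmp19 was also rich in cells that took no class. These held 772 knockout UMIs (10.5% of all its UMIs in kept cells) and 860 wild-type UMIs (13.8%). In the knockout 24 cells held 654 of them, at 1600 CPM. These cells lead with Ear2 (873 CPM against 36.5 CPM), Spp1, Lyz1 and Dcstamp, and had C1qa at 152 CPM against 3459 CPM in macrophage-gated cells. In the wild type 40 cells held 402, at 449 CPM, and lead with Mmp12 (2272 CPM), Gpnmb and Lgals3, with C1qa at 193 CPM. The macrophage levels above leave these cells out. They were chosen by at least 5 Mmp19 UMIs after the values were seen.

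Many of the low levels outside progenitors and macrophages lay near the level expected from RNA of those cells. Whether RNA of those cells was counted there, and by what route, was not tested. Genes of stromal matrix (such as Col1a1 and Col3a1) stood in knockout T cells at 1.55% of their progenitor level and in wild-type T cells at 6.15%, and in macrophages at 1.61% and 4.29%. Multiplying these shares by the progenitor level gives the level expected if the gene reached the class in the same proportion. In macrophages Mmp3 was at 1.10 CPM (0.65 to 1.74) and 4.33 CPM (3.45 to 5.37) where 0.69 and 4.46 were expected, within the intervals in both libraries. Mmp2 was at 8.79 CPM (7.41 to 10.4) and 20.5 CPM (18.5 to 22.6) where 7.19 and 26.7 were expected, above in the knockout and below in the wild type. Timp3 was at 14.6 CPM (12.8 to 16.6) and 32.1 CPM (29.6 to 34.7) where 13.6 and 26.1 were expected, within in the knockout and above in the wild type. Mmp14 was at 11.2 and 19.99 CPM, above the expected 4.54 and 14.3, and its log2 ratio of -0.83 became 0.25 when the expected part was subtracted. Timp2 in T cells was at 62.9 CPM (56.6 to 69.6) and 317 CPM (298 to 337) where progenitor and macrophage RNA together would bring 60.1 and 280 CPM. Apart from Mmp14, the expected level was more than 0.5 of each of these measured levels, and such levels are not read as expression by the class.

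**Figure D5:**
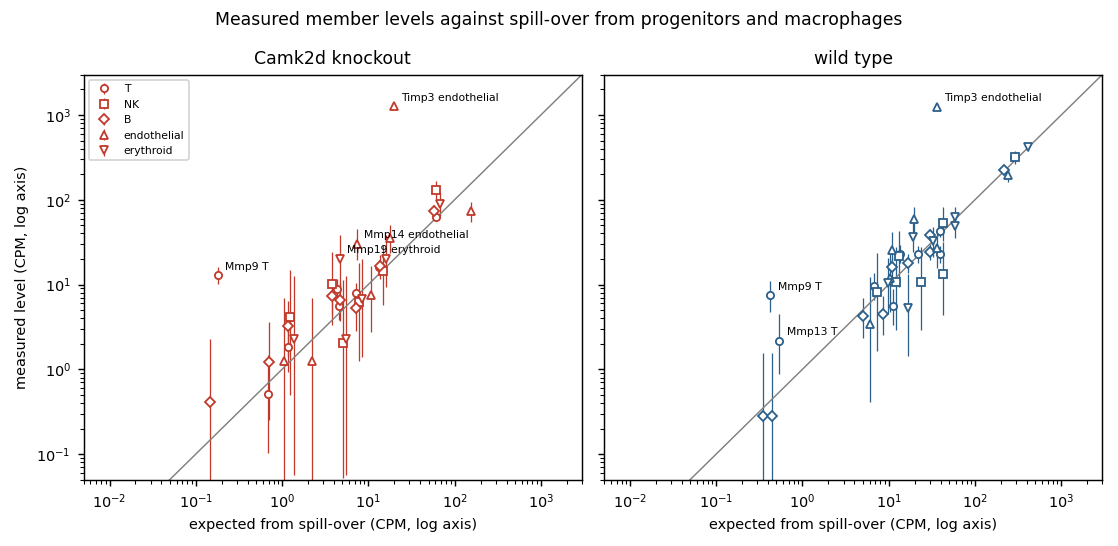
Measured level (CPM, log axis, exact Poisson 95% intervals) of the genes in T, NK, B, endothelial and erythroid cells against the level expected from progenitor and macrophage RNA (CPM, log axis), knockout and wild-type libraries. Points near the diagonal, such as Mmp14 in T cells, are at the expected level, and Mmp9 in T cells and Timp3 in endothelial cells lie above it.

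In the 10 classes that had 50 or more cells in each library, 40 pairs of gene and class passed the floor. The knockout level was lower by 2-fold or more in 25 pairs and higher by that much in 2. The share of all genes lower by as much was 1.5% in macrophages, 6.18% in T cells, 5.86% in B cells, 5.59% in cDC1, 4.59% in the Cd209a-gated cells, 4.47% in NK cells, 1.87% in endothelial cells and 1.73% in monocytes. In erythroid cells it was 89.6%. The shares higher by as much were 0.982% in macrophages, 1.3% in T cells, 2.87% in B cells, 1.67% in the Cd209a-gated cells, 4.21% in NK cells, 2.37% in endothelial and 0.644% in erythroid cells. Besides Mmp3 and Timp1 in progenitors, the lower pairs lie in other classes. Among these 10 classes the stromal share was larger in the wild type in each one other than progenitors. The part of the stromal share in the lower pairs was not tested. After subtraction of that share, 9 pairs were lower by 2-fold or more and past the floor. This count includes the 2 in progenitors, from which nothing was subtracted. Each of the 2 higher pairs rested on 1 barcode. Mmp19 in cDC1 was at 207 against 60.2 CPM, for a ratio of 1.78 on the log2 scale (background 1.09% higher), and 1 barcode held 310 of its UMIs (79.1%). That barcode had 87232 UMIs, 1649 of Mmp12, and 0 of the cDC1 genes Xcr1 and Clec9a, and without that barcode the log2 ratio was -0.41. Timp1 in monocytes was at 107 against 10.9 CPM, for a ratio of 3.30 on that scale (background 4.06% higher), and 1 barcode with 25 Col1a1 UMIs held 68 of its 72 UMIs. Without that barcode the log2 ratio was -0.81.

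A list of 52 further genes of the system (other metalloproteinases, ADAM and ADAMTS proteases, plasminogen activators, inhibitors and clearance receptors) was read in the same way, of which 51 were found. In progenitors 31 passed the floor. Of these 1, Mmp12, was at least 2-fold lower in the knockout (16.1 against 73.9 CPM, log2 -2.20), and 0 were higher, against 2.23% and 0.94% of all genes. The list median was -0.02 against -0.09 over all genes. The macrophage share of RNA expected in progenitors would bring 4.73 and 31.0 CPM of Mmp12. In T cells Mmp12 was likewise above the computed level, at 34.6 and 115 CPM where 6.93 and 47.8 CPM were expected from progenitors and macrophages together. The Mmp12 level of progenitors is therefore not read as their expression. In macrophages 20 passed, 1 of them higher and 3 lower, against 0.982% and 1.5% of all genes, with a median of -0.06 against -0.10. The higher one was Serpinb2, a plasminogen activator inhibitor, at 55.1 against 2.24 CPM (log2 4.62). The lower ones were Mmp12, at 298 against 607 CPM (-1.03), and the aggrecan protease gene Adamts5 (13.8 against 47.3 CPM, -1.78) and the procollagen protease gene Adamts2 (5.74 against 16.5 CPM, -1.53). In progenitors Adamts5 was at 1096 and 1111 CPM and Adamts2 at 303 and 356 CPM, and the stromal share would bring 17.6 and 47.7 CPM of Adamts5 and 4.88 and 15.3 CPM of Adamts2 into macrophages, near the levels measured there.

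The genes whose levels over the 20 class and library points were most like each member (log2 scale with 10 CPM added) were found among 5472 genes. For Mmp2 this was Pcolce2, for Mmp3 Zfhx4, for Mmp14 Ptgfrn and for Timp3 Sparcl1, with Pearson correlations of 0.986, 0.981, 0.976 and 0.996. They were 0.956 for Timp2 with Plxdc2, 0.892 for Mmp19 with Anpep, 0.892 for Timp1 with Dmkn, 0.797 for Mmp13 with F10 and 0.776 for Mmp9 with Ramp3. The points share libraries and, for stromal genes, RNA that may have spread between classes, so these values only describe these levels.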

How the data were processed

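The authors deposited raw UMI counts per gene and barcode, 1 matrix per library, made with Cell Ranger 5.0.0, with Seurat 4.1.1 and the build mm10 also listed, per the submitters' processing notes. The genes and lists were chosen with earlier results of these data known. The 3' counts were not aligned again, and need no correction for gene length.

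Barcodes with at least 500 UMIs, 200 genes and at most 20% mitochondrial UMIs were kept. Cells took a class from at least 2 of its markers, with a score (share of UMIs in the markers over that of the 30 best cells) of at least 0.1 and no other lineage above 0.25 of it. The scoring was set after seeing the data. Doublets were treated by that limit alone. Barcodes above the 95th percentile of UMIs were kept, and leaving them out was run as an alternative. The libraries share 48 barcode sequences. Cells near a subgate boundary numbered 23 and 101 in macrophages and 180 and 218 in progenitors.

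Levels are summed UMIs of a gene over all UMIs of that class in that library. Intervals are exact Poisson for levels, exact conditional for ratios and Clopper-Pearson for shares. A pair passed the floor at a mean of 10 CPM and 30 UMIs in the higher library, and was called at 2-fold. Shares of cells were compared after thinning to 2000 UMIs. RNA from progenitors was read from 10 stromal genes, that from macrophages from Lyz2 and Cd68, chosen after seeing the data. All 9 members are named, other pathway genes at least 2-fold different in progenitors or macrophages, Mmp12 and Timp4 always, and other genes were named after their values were seen. Alternatives were other scalings, floors, folds, cell filters and lineage limits, mean per-cell levels, equal subgate weights and, added after seeing the data, leaving out the cell richest in the gene in each library or in the knockout library alone. The procedure was tested on simulated data. Python 3.11.15, NumPy 2.4.6, SciPy 1.17.1, pandas 2.3.3 and matplotlib 3.10.9 were used.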

Additional observations from a re-analysis of the deposited data

How the results depend on the processing

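No paired analysis was possible because each genotype has 1 library. Over 40 pairs of gene and class and 360 alternative values, 255 stayed within the counting interval, and for the others the cause was not tested. The sign changed in 22 values, 14 of them of pairs at least 2-fold different and 8 of other pairs. In progenitors the log2 ratio kept its direction under the alternatives run for Mmp3 (-1.41 to -1.11), Timp1 (-1.74 to -1.07), Timp3 (0.44 to 0.64), Mmp2 (-0.56 to -0.32), Timp2 (-0.38 to -0.15) and Mmp14 (-0.27 to -0.08), while Mmp19 ranged from -0.17 to 0.07.

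The 25 lower pairs became 9 with a floor of 50 CPM. With stromal RNA subtracted they became 9, counting the 2 progenitor pairs as they were. That step gave a value for 26 pairs, since 7 progenitor pairs have none to subtract and 7 others fell to 0 or below in a library. Of the 18 pairs at least 2-fold different among the 26, 17 kept their direction and 12 also their 2-fold size. The 2 higher pairs became 1 with the mean of per-cell CPM, 1 with stromal RNA subtracted, 0 without the richest cell, 4 with the stricter cell filter (3 of them in erythroid cells, where it leaves 1 knockout cell, and 1 in the 9 classes that keep 50 cells), 0 without barcodes above the 95th percentile and 1 with the stricter lineage limit. Median-of-ratios scaling gave 1 higher pathway gene in progenitors (0 before) and 2 in macrophages (1 before), and a floor of 50 CPM gave 0 lower in progenitors and, in macrophages, 0 higher and 1 lower. Reversed log2 ratios were, in erythroid cells, where the values under the stricter filter rest on 1 knockout cell, 0.052 (median-of-ratios) and 0.076 (stricter filter) for Timp2, 0.65 (median-of-ratios), 0.19 (TMM) and 2.75 (stricter filter) for Timp3, and 3.20 (stricter filter) for Mmp2. They were 0.77 for Timp2 in endothelial cells with stromal RNA subtracted. Timp1 in monocytes was -0.41 without its richest cell in each library, -1.01 without the 95th percentile and -0.11 with the stricter limit, and Mmp19 in cDC1 was -0.13 and -0.64 under the former pair of these. Without only the knockout barcode richest in the gene they were -0.81 and -0.41. Among pairs within 2-fold, Mmp14 in macrophages went to 0.25 with stromal RNA subtracted, Mmp19 in macrophages to -0.06 with equal subgate weights, Mmp19 in monocytes to -0.40 without the lineage limit and -0.32 with per-cell means, Mmp19 in progenitors to 0.03 and 0.07 under the other scalings, and Timp3 in endothelial cells to -0.036 with the stricter limit and -0.0029 without its richest cell.

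Depth limits Mmp9 and Mmp13, whose levels in most classes rest on under 30 UMIs.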
